A study of Homo sapiens with 9 samples.

Results

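The 85 genes described here are the human cytosolic ribosomal protein genes, 52 named for the large subunit and 33 for the small subunit, taken by gene symbol from the 61552 genes that each deposited file lists. Symbols of the RPL and RPS series, RPLP0 to RPLP2 and RPSA were kept, and RPS6 kinases and pseudogenes were left out, so the rule itself uses no measured value. The members lie on 22 chromosomes. They comprise 77 core subunit genes and 8 paralogues (RPL3L, RPL10L, RPL39L, RPS27L, RPL22L1, RPL26L1, RPL7L1 and RPS4Y1), which are close relatives of a core gene.

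RNA-seq was performed on MDA-MB-231 cells, an established human triple-negative breast cancer line with the genotype labelled WT, grown in DMEM with 10% fetal serum and exposed for 24 h to 0 mM (control), 10 mM or 20 mM 2-deoxy-glucose (2-DG), with 3 libraries per group. 2-DG is a glucose analogue that is phosphorylated in the cell and then slows glycolysis. The labels do not say whether the 3 libraries of a group came from separate cultures, so p-values measure the spread between these libraries, which may be technical. The study's lactate arm is outside this account. The values are FPKM (counts per kilobase of gene, scaled to the total of the library). The gene length worked back from them was, for example, 2128 bases for RPL39 and 1033 for RPL39L. Ranks and percentages between genes therefore depend on these lengths as well as on the reads, while changes within a gene do not. Library totals recovered from the FPKM values lay between 30974968 and 40843638 reads. The line's markers were present, with VIM at 285, KRT18 at 150 and CD44 at 69.8 FPKM in the control, and the receptor genes ESR1 and PGR had 19 and 35 reads in all 9 libraries together. The receptor gene ERBB2, at 8.81 FPKM in the control with 22571 reads in all, and the epithelial genes EPCAM (2575 reads) and CDH1 (313 reads) were detected. Of the markers of other cell types, PTPRC had 38 reads in all and CD3E had 1, while PECAM1 had 3223 and COL1A1 3137. PECAM1 was lower at 20 mM (log2 fold change -0.51, adjusted p = 0.00318, limma). So were ERBB2 (-0.54, adjusted p = 0.000385), CDH1 (-0.35, adjusted p = 0.000207) and CD44 (-0.30, adjusted p = 0.00828). VIM, KRT18, EPCAM and COL1A1 did not pass the test at 20 mM. The part of these changes in the results below was not tested.

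The cytosolic ribosome makes the proteins encoded in the nucleus. Its large subunit joins amino acids and its small subunit reads the mRNA, and each ribosome holds about the same number of copies of nearly every ribosomal protein, so their genes are expressed together at a high level. Their mRNAs belong to the TOP class: transcription starts at a C that is followed by a run of pyrimidines (the terminal oligopyrimidine tract), through which mTORC1 and the RNA-binding protein LARP1 set how well the mRNA is translated. A few members have tissue-biased or stress-linked paralogues, of which RPL39L, a relative of RPL39 known mainly from testis and from tumours, is the most relevant below.

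The sequences around the transcription start show what the set shares outside its names. RefSeq promoter windows (GRCh38.p14) were found for 68 of the 85 members. A stretch of at least 5 pyrimidines, counted from a C within 5 bases of the listed start (it may continue upstream of that C), was present in 55 of these 68 genes (80.9%), against 25.2% of the 27305 genes in the table. The letters CCGGAA, read on both strands over the 300-base window, were present in 58.8% of the members and in 20.1% of all genes. AAGATGG was present in 13.2% and 7.11%, and TATAAA in 10.3% and 14%. The windows below run from 10 bases before to 20 bases after the start, 5′ to 3′, with the stretch counted from that C in capitals. They show the highest-changing members (RPL12, RPL13A, RPL28 and RPS13), reference members (RPLP0 and RPS6), a low-listed member (RPS10), members whose paralogue is also shown or described (RPL39, RPL22 and RPS27) and paralogues with a run (RPL22L1) and without one (RPS27L and RPL7L1).
RPL12, chr9:127451387-127451416, minus strand: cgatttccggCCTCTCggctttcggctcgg
RPL13A, chr19:49487598-49487627, plus strand: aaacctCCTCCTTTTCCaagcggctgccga
RPL28, chr19:55385922-55385951, plus strand: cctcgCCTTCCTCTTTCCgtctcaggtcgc
RPS13, chr11:17077648-17077677, minus strand: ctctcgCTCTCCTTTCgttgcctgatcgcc
RPLP0, chr12:120201092-120201121, minus strand: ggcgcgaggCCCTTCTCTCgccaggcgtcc
RPS6, chr9:19380217-19380246, minus strand: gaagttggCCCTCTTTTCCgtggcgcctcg
RPS10, chr6:34426050-34426079, minus strand: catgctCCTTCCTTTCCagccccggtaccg
RPL39, chrX:119791611-119791640, minus strand: ccgccagCTTCCCTCCTCTTCCTTTCTCCg
RPL22, chr1:6199576-6199605, minus strand: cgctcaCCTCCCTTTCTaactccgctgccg
RPL22L1, chr3:170870176-170870205, minus strand: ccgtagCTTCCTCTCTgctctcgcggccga
RPS27, chr1:153990752-153990781, plus strand: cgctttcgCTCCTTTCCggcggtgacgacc
RPS27L, chr15:63157458-63157487, minus strand: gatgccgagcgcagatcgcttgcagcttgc
RPL7L1, chr6:42879606-42879635, plus strand: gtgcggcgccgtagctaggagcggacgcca

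RPL39 and RPL39L are printed over their coding sequence because they moved apart while their coding sequences are nearly the same. Both coding sequences (GENCODE release 29, GRCh38, 5′ to 3′) are 156 bases long, 94.9% identical and differ at 8 bases, shown in capitals. RPL39 lies on the minus strand of chromosome X between 119786504 and 119791643, and RPL39L on the minus strand of chromosome 3 between 187120948 and 187180908. The longest run shared by their annotated transcripts is 67 bases, so reads within it cannot be told apart, and how the authors treated such reads is not given in the sources used here.
RPL39, coding sequence: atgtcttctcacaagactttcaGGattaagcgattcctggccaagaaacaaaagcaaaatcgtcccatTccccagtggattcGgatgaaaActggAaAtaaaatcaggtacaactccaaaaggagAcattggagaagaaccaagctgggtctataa
RPL39L, coding sequence: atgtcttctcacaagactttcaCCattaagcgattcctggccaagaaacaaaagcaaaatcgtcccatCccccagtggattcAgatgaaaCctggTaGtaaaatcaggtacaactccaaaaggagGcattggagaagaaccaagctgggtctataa

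The core genes were expressed at a high level that moved as a block between replicates. All 77 core genes passed the filter on low values, and 73 of them had a mean of at least 5 FPKM over the 9 libraries. The median over core genes of the mean FPKM was 204, and the highest was RPS18 at 1184 FPKM. RPS18 is a protein of the small-subunit head. RPS12 (small subunit), RPL8 (a large-subunit protein near the peptidyl transferase centre) and RPS2 (small subunit) were also among the highest in FPKM. RPS18 measured 1190, 1033 and 1050 FPKM in the control, 1072, 1393 and 1027 FPKM at 10 mM 2-DG and 1309, 1333 and 1251 FPKM at 20 mM 2-DG. Its 20 mM libraries were all above its controls, while 1 library at 10 mM was higher than any other and another was lower than any control.

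The members together took 6.14%, 5.26% and 5.68% of the reads in the 3 control libraries. At 10 mM 2-DG they took 5.42%, 7.1% and 6.07%, and at 20 mM 2-DG 6.56%, 6.46% and 6.21%. The 20 mM libraries lay above all controls, and the 10 mM libraries overlapped both other groups. The group means were 5.69% ± 0.44, 6.2% ± 0.847 and 6.41% ± 0.18 (SD, n = 3 each). The median core gene measured 203, 173 and 192 FPKM in the control, 175, 236 and 201 FPKM at 10 mM and 218, 207 and 196 FPKM at 20 mM.

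Single libraries carried this movement. Control replicate 2 was the lowest of its group for 70 of the 77 core genes, 10 mM replicate 1 for 68 and 20 mM replicate 3 for 68, and 10 mM replicate 2 was the highest of its group for 67. The SD between replicates (pooled over the 3 groups, on the log2(FPKM + 1) scale) had a median of 0.15 over the core genes. After each library was centred on its own median over the core genes it was 0.07, and it fell for 71 of 77 genes. This is in part built in, since the genes set the centre. With the same centre, the median SD of all 16570 genes tested went from 0.11 to 0.19, and that of the 754 other genes with a mean of at least 50 FPKM from 0.10 to 0.12. RPL26, whose protein sits by the exit of the peptide tunnel, had the largest SD after centring, 0.275. The level of the set itself had an SD between replicates of 0.15 (log2), so a shift of that size in all members cannot be told from the spread between libraries. That SD is pooled over unlike groups and is not the error of a difference between group means. The median core gene on the log2(FPKM + 1) scale was 7.68, 7.44 and 7.59 in the control. It was 7.46, 7.89 and 7.66 at 10 mM, where it spread most, and 7.77, 7.70 and 7.62 at 20 mM.

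**Figure D1:**
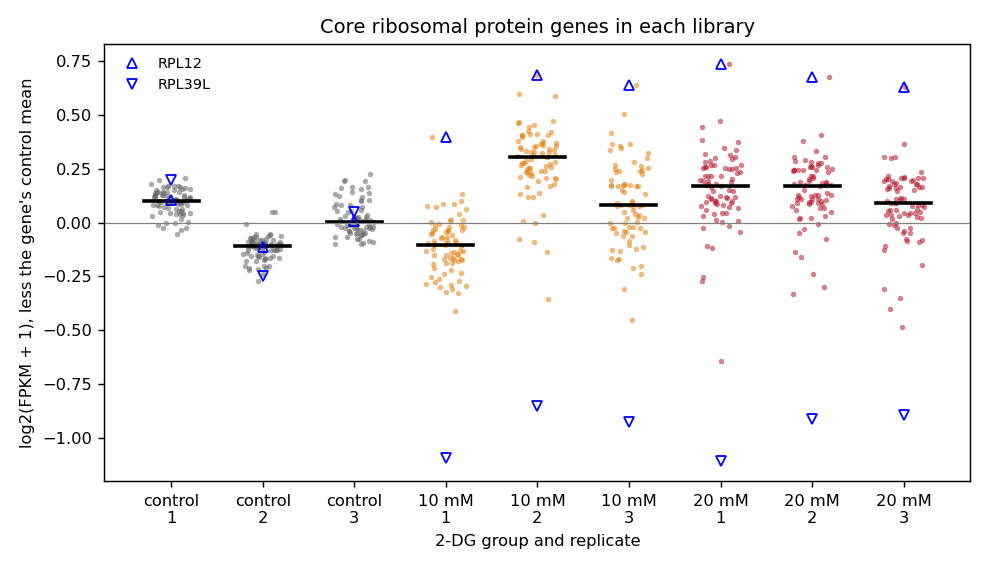
Each point is 1 of the 77 core ribosomal protein genes in 1 library, as log2(FPKM + 1) less the gene's control mean (y axis), by 2-DG group and replicate (x axis); black bars are medians and open blue symbols mark RPL12 and the paralogue RPL39L. The whole cloud sits low in 10 mM replicate 1 and high in 10 mM replicate 2, while RPL39L lies far below it and RPL12 above it in all 6 treated libraries.

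**Figure D2:**
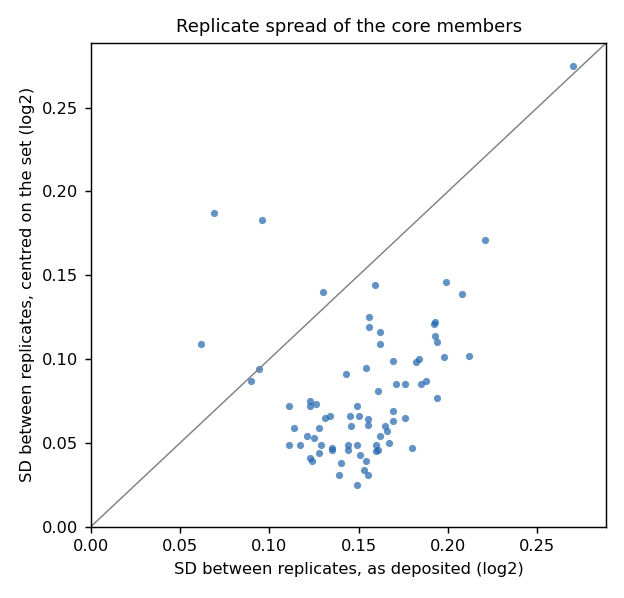
Each point is 1 core gene, with its SD between replicates as deposited (x axis, log2) and after centring each library on the median core gene (y axis, log2); the line marks equal values. For 71 of 77 genes the point lies below the line, and the highest point is RPL26 with 0.275 after centring.

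At 10 mM 2-DG against control, RPL12 and RPL13A rose and RPL39L, RPL7L1 and RPS10 fell. These were 2 higher and 3 lower of 82 members tested at a Benjamini-Hochberg adjusted p under 0.05 (limma on log2(FPKM + 1), 16570 genes), or 2.44% and 3.66%. Of all genes tested, 12.1% were called higher and 17.5% lower. The median log2 fold change of the 82 was 0.09, against -0.01 over all genes tested, and 65 of them were above 0. The treated libraries lay wholly above the controls for 4 members (17.8% of all genes) and wholly below for 4 (22.7% of all genes). At an unadjusted p under 0.05, 8 members were higher and 3 lower, where 40.4% of all genes passed.

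The members' median at 10 mM was 0.18 without 10 mM replicate 1, -0.01 without 10 mM replicate 2, 0.03 without control replicate 2 and 0.14 without control replicate 1. With 10 mM replicate 1 left out, 17 members were called higher in place of 2. The share of all genes called in the fits with a library left out was not worked out. The higher count was 1 when control replicate 2, 10 mM replicate 2 or 3, or any single 20 mM library was left out. The lower count was 1 without control replicate 2 or 3 and 5 without 10 mM replicate 2.

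At 20 mM 2-DG against control, the large-subunit genes RPL12, RPL13A, RPL28, RPL37 and RPL30 and the small-subunit gene RPS13 rose, by between 0.25 and 0.68 on the log2 scale. RPL39L, RPS10, RPL7L1 and RPL36A were among those that fell. These were 6 higher (7.32%) and 5 lower (6.1%) of 82, where 15.4% of all genes were called higher and 21.6% lower. RPL30, RPL37 and RPL36A are named because they passed the test and were outside the naming rule. The median log2 fold change of the members was 0.12, against -0.02 over all genes tested, and 69 of the 82 were above 0. All 3 treated libraries lay above all controls for 30 members (36.6%, against 23.3% of all genes) and below for 6 (7.32%, against 29.9%). At an unadjusted p under 0.05, 14 members were higher and 6 lower, where 46% of all genes passed. The members' median was 0.06 without control replicate 2, and between 0.11 and 0.18 without any other library.

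The number called higher at 20 mM changed with the libraries in the fit. It was 14 without 10 mM replicate 1 and 20 without 10 mM replicate 2. Neither enters the difference between 20 mM and control, but both enter the spread, which the fit over all 9 libraries shares between groups. The core genes' median SD between replicates was largest among the 10 mM libraries, 0.22 (log2). For the control libraries it was 0.13, and for the 20 mM libraries 0.05. The part of this unequal spread in the counts was not tested. The higher count was 25 with only the control and 20 mM libraries in the fit, and 2 without control replicate 2, 20 mM replicate 1 or 20 mM replicate 2. The share of all genes called in each of these fits was not worked out, so these counts cannot be read as particular to the members. The lower count was 3 without control replicate 1, control replicate 2 or 20 mM replicate 3, and 6 with only the 2 groups. With upper-quartile scaling 15 members were called higher and 2 lower. That scaling moved all calls from 2544 higher and 3582 lower to 3277 and 2780 (at 10 mM from 2010 and 2903 to 2481 and 2326), and the members' median from 0.12 to 0.22. The thresholds of the study are a log2 fold change beyond 1 in size at an unadjusted p under 0.05. Applied here to limma on log2(FPKM + 1), in place of DESeq2 on counts, they called 0 members at either dose. Of all genes, 0.579% were called higher and 1.16% lower in this way at 10 mM, and 0.966% and 1.96% at 20 mM.

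Between 20 mM and 10 mM 2-DG no member passed the test. By limma's test 0 members, and 0 of all 16570 genes (0%), had an adjusted p under 0.05. At an unadjusted p under 0.05, 0 members were higher and 1 lower, where 6.88% of all genes passed. All 3 libraries at 20 mM lay above those at 10 mM for 1 member, RPL30, and below for 1, where 4.71% of all genes lay above and 7.14% below. At the thresholds of the study 0 members were called (0.00604% of all genes higher and 0% lower). The median log2 difference was 0.04, with -0.05 when 10 mM replicate 1 was left out, 0.14 without 10 mM replicate 2, 0.08 without 20 mM replicate 3 and 0.02 without 20 mM replicate 1. Both doses share the same controls, so their fold changes are not independent of each other.

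**Figure D3:**
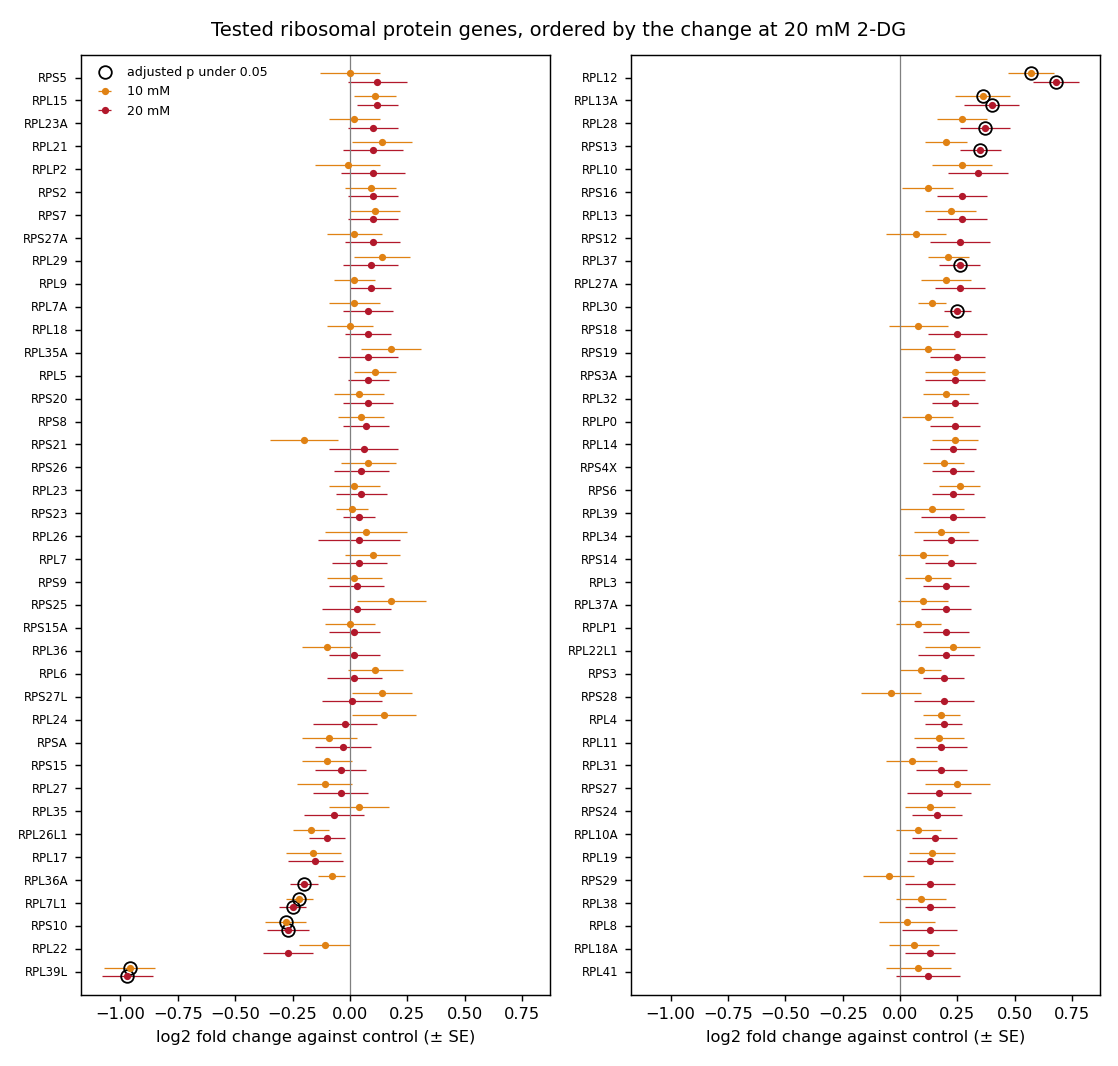
The tested members, 80 of 82 shown, in order of their log2 fold change at 20 mM 2-DG (the left panel continues the right one downward), with 10 mM in orange and 20 mM in red; whiskers are ± SE from limma and black rings mark an adjusted p under 0.05. Most values lie between 0 and 0.3, with RPL12 at the top (0.68 at 20 mM) and RPL39L at the bottom (-0.97).

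To find genes that moved apart from the set, the same test was run after each library was centred on its median over the 77 core genes, with a call at an adjusted p under 0.05 and an absolute log2 difference over 0.5. At 20 mM 2-DG, 3 of 82 members departed, among them RPL39L downward and RPL12 upward. Of all genes tested, 16.2% departed by the same rule. At 10 mM 2-DG 1 member departed, RPL39L (11% of all genes), and between the doses 0 did. At 20 mM 75 members, and at 10 mM 77, stayed within 0.3 of the set. With a threshold of 0.3 there were 5 at 20 mM, RPL22 and RPL7L1 being the added ones.

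RPL39L fell most of all members. It measured 43.3, 31.5 and 39.0 FPKM in the control, 17.1, 20.4 and 19.3 FPKM at 10 mM 2-DG and 16.9, 19.5 and 19.8 FPKM at 20 mM 2-DG, from 4162, 2163 and 2020 reads per group. All 6 treated libraries lay below all 3 controls, and the 2 doses overlapped. The log2 fold change was -0.96 ± 0.11 (SE, n = 3 against 3, adjusted p = 0.000244, limma) at 10 mM and -0.97 ± 0.11 (adjusted p = 0.000157) at 20 mM. Relative to the set it was -1.06 and -1.10 (adjusted p = 7.68e-06 and 2.83e-06). RPL39L was called at both doses in all 19 settings that use an adjusted p under 0.05. On the log2(FPKM + 1) scale of the main fit it fell just short of the study's threshold of size at both doses. The ratio of its mean FPKM to the control was 0.498 at 10 mM and 0.494 at 20 mM, and over the settings its log2 fold change reached -1.08 and -1.10. The study applied that threshold to DESeq2 fold changes on counts, which is another measure. The counts of settings given for the genes below are out of the same 19, or 18 for RPL36A, which the filter at an FPKM of at least 1 removed.

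RPL39, its core counterpart, is a small basic protein in the wall of the peptide exit tunnel. It measured 99.8, 78.2 and 108 FPKM in the control, 87.9, 129 and 100 FPKM at 10 mM and 113, 112 and 108 FPKM at 20 mM. The groups overlapped, with a log2 fold change of 0.23 ± 0.14 (adjusted p = 0.248, limma) at 20 mM. RPL39L as a percent of RPL39 was 43.4, 40.2 and 36.1 in the control, 19.4, 15.8 and 19.2 at 10 mM, and 15, 17.5 and 18.4 at 20 mM. Every treated library was thus under the lowest control in this ratio, which does not depend on the scaling of the libraries. Its level does depend on the gene lengths behind the FPKM, 1033 bases for RPL39L and 2128 for RPL39. In reads, the control held 4162 for RPL39L and 21538 for RPL39.

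RPL12 is a protein at the base of the large-subunit stalk, where translation factors bind. It measured 444, 382 and 415 FPKM in the control, 545, 664 and 644 FPKM at 10 mM 2-DG and 689, 661 and 639 FPKM at 20 mM 2-DG. Every treated library lay above every control. The log2 fold change was 0.57 ± 0.10 (adjusted p = 0.00178, limma) at 10 mM and 0.68 ± 0.10 (adjusted p = 0.00047) at 20 mM. Relative to the set it was 0.48 (adjusted p = 0.000178), just under the threshold of size, and 0.55 (adjusted p = 2.26e-05). It was called at both doses in all 19 settings. The gene lies on the minus strand of chromosome 9 between 127447674 and 127451405 (GRCh38, GENCODE release 29), and its start carries a run of 6 pyrimidines, as printed above.

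RPL13A, a large-subunit protein that also has a reported role outside the ribosome, measured 526, 446 and 490 FPKM in the control, 534, 732 and 626 FPKM at 10 mM and 662, 645 and 627 FPKM at 20 mM. The treated libraries lay above the controls at both doses. The log2 fold change was 0.36 ± 0.12 (adjusted p = 0.0394, limma) at 10 mM and 0.40 ± 0.12 (adjusted p = 0.0203) at 20 mM, called in 8 and 14 of 19 settings. RPL28, a large-subunit protein, measured 178, 148 and 147 FPKM in the control, 167, 217 and 189 FPKM at 10 mM and 218, 198 and 194 FPKM at 20 mM. It overlapped the controls at 10 mM and lay above them at 20 mM (log2 fold change 0.37 ± 0.11, adjusted p = 0.0229, limma). RPS13, a small-subunit protein, measured 211, 173 and 192 FPKM in the control, 202, 249 and 213 FPKM at 10 mM and 248, 249 and 236 FPKM at 20 mM. Its 20 mM libraries lay above the controls (0.35 ± 0.09, adjusted p = 0.0152, limma), and its 10 mM libraries overlapped them.

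RPL30, a large-subunit protein that binds its own transcript in yeast, was the only member whose 3 groups lay in separate ranges upward. It measured 101, 90.8 and 96.8 FPKM in the control, 102, 108 and 109 FPKM at 10 mM and 119, 116 and 110 FPKM at 20 mM. The log2 fold change at 20 mM was 0.25 ± 0.06 (adjusted p = 0.00939, limma), called in all 19 settings, and relative to the set it was 0.12 (adjusted p = 0.423). RPL37, a zinc-binding large-subunit protein, measured 128, 110 and 116 FPKM in the control and 147, 141 and 136 FPKM at 20 mM (0.26 ± 0.09, adjusted p = 0.0373, limma). It was called in 12 of 19 settings.

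**Figure D4:**
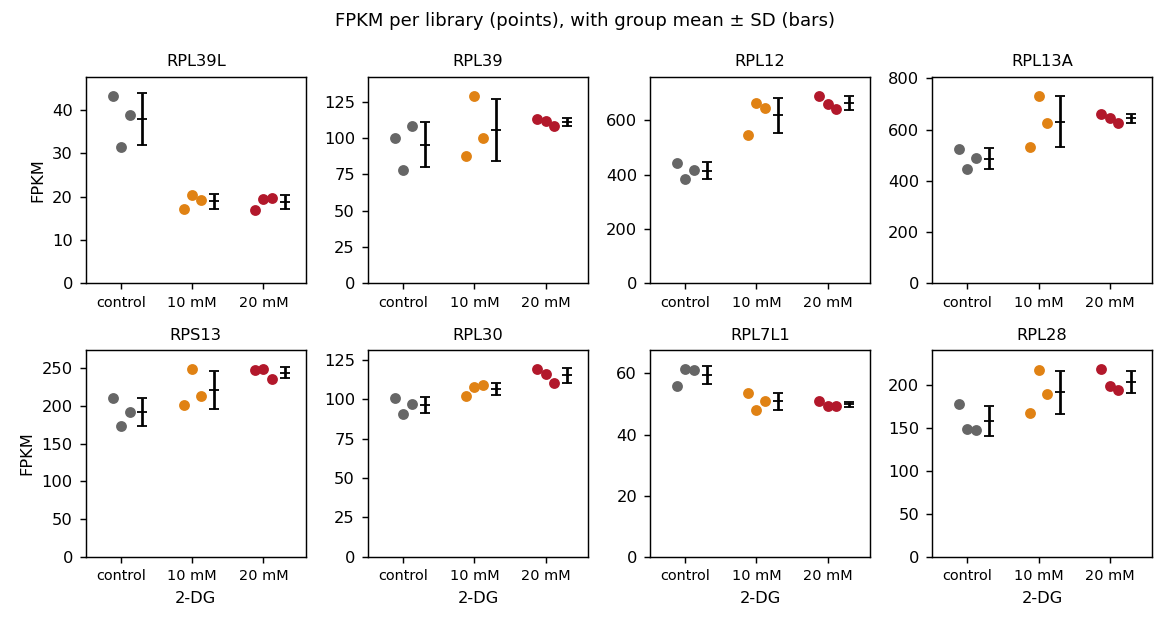
FPKM (y axis, from 0) of 8 members in each library (points) by 2-DG group (x axis), with the group mean ± SD (n = 3) as a bar beside the points. RPL39L falls to about the same level at both doses while RPL39 does not; RPL12, RPL13A, RPL28, RPS13 and RPL30 are higher and RPL7L1 is lower at 20 mM than in every control.

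By subunit, the core genes of the large and the small subunit had nearly the same median. At 20 mM it was 0.13 over 46 large-subunit genes, of which 5 rose and 1 fell, and 0.12 over 31 small-subunit genes, of which 1 rose and 2 fell, beside 15.4% of all genes higher and 21.6% lower. At 10 mM the medians were 0.11 and 0.08. The P stalk, formed by RPLP0 with the acidic proteins RPLP1 and RPLP2, recruits the factors that drive translation, and 0 of its 3 genes passed the test. RPLP0 measured 748, 656 and 652 FPKM in the control, 690, 884 and 674 FPKM at 10 mM and 814, 829 and 790 FPKM at 20 mM. Its 20 mM libraries were all above its controls, at a log2 fold change of 0.24 ± 0.11 (adjusted p = 0.123, limma). RPLP1 and RPLP2 had 0.20 ± 0.10 and 0.10 ± 0.14 and overlapped the controls.

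RPL5 and RPL11 carry the 5S RNA into the large subunit and, outside it, bind MDM2 in the p53 response to faulty ribosome assembly. At 20 mM the log2 fold change was 0.08 ± 0.09 for RPL5 (adjusted p = 0.519, limma) and 0.18 ± 0.11 for RPL11 (adjusted p = 0.222). RPL11 measured 308, 269 and 289 FPKM in the control and 335, 335 and 312 FPKM at 20 mM, without overlap. RPS6, the substrate of the S6 kinases, measured 364, 333 and 361 FPKM in the control, 368, 459 and 449 FPKM at 10 mM and 422, 417 and 406 FPKM at 20 mM. It lay above the controls at both doses without passing the test (adjusted p = 0.0546 and 0.0701, limma). RPS3, at the mRNA entry of the small subunit, had 0.19 ± 0.09 (adjusted p = 0.138), and RPSA, also known as the laminin receptor, had -0.03 ± 0.12 (adjusted p = 0.876) at 20 mM.

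Of the 8 paralogues, 5 passed the filter. RPL3L had 9 reads in all, RPL10L was listed at 0, and RPS4Y1 also did not pass. At 20 mM 0 of the 5 rose and 2 fell, RPL39L and RPL7L1, where 15.4% of all genes rose and 21.6% fell. RPL7L1, which acts in large-subunit assembly, measured 56.0, 61.4 and 61.0 FPKM in the control, 53.7, 48.1 and 51.0 FPKM at 10 mM and 50.9, 49.4 and 49.2 FPKM at 20 mM. All treated libraries lay below all controls (at 20 mM -0.25 ± 0.06, adjusted p = 0.00876, limma). For RPL7 itself the value at 20 mM was 0.04 ± 0.12.

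RPL22 and RPL22L1 are an RNA-binding pair in which RPL22 is known to hold down its paralogue. RPL22 measured 11.2, 10.8 and 11.7 FPKM in the control, 8.21, 11.2 and 11.9 FPKM at 10 mM and 9.13, 9.35 and 8.86 FPKM at 20 mM. Its 20 mM libraries lay below the controls (-0.27 ± 0.11, adjusted p = 0.0831, limma), and relative to the set the difference was -0.40 (adjusted p = 0.0383). RPL22L1 measured 11, 10 and 14.2 FPKM in the control and 13.1, 13.5 and 13.9 FPKM at 20 mM, which overlapped. As a percent of RPL22, RPL22L1 was 97.8, 93 and 122 in the control, 146, 133 and 122 at 10 mM and 144, 145 and 157 at 20 mM. RPL26L1 was listed at 139% to 178% of RPL26 in the control, 94.2% to 161% at 10 mM and 123% to 162% at 20 mM. RPL26 had the largest spread between replicates after centring. These percentages also depend on the gene lengths behind the FPKM. In reads, the control held 6607 for RPL26L1 and 8942 for RPL26, and 2553 for RPL22L1 and 5572 for RPL22. RPS27L, a p53-responsive relative of RPS27, stayed between 1.03% and 1.24% of RPS27 in all libraries. RPL3, RPL10 and RPS4X, whose paralogues did not pass, had log2 fold changes of 0.20, 0.34 and 0.23 at 20 mM, and their 20 mM libraries all lay above the controls (adjusted p = 0.134, 0.0606 and 0.0877, limma).

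A group of 4 core genes was listed far below the others, although a ribosome holds their products like the rest. They include RPL17 at a mean of 2.19 FPKM, RPS10 at 1.48 and RPL36A at 0.442, where the lowest core gene outside the group had 10.3. At 20 mM 3 of these 4 fell, and of the other 73 core genes 6 rose and 0 fell, where 15.4% of all genes rose and 21.6% fell. RPS10 measured 1.75, 1.9 and 1.76 FPKM in the control, 1.24, 1.19 and 1.5 FPKM at 10 mM and 1.35, 1.51 and 1.12 FPKM at 20 mM, from 442, 331 and 319 reads per group. It lay below the controls at both doses (at 20 mM -0.27 ± 0.09, adjusted p = 0.0421, limma) and was called at 20 mM in 7 of 19 settings. RPL36A measured 0.533, 0.585 and 0.485 FPKM in the control and 0.423, 0.247 and 0.336 FPKM at 20 mM (-0.20 ± 0.06, adjusted p = 0.0282, limma; called in 12 of 18 settings). RPL17, named after its values were seen, did not pass at 20 mM (-0.15 ± 0.12). These fold changes are on the log2(FPKM + 1) scale, which understates changes at so low a level. RPL36AL, a relative of RPL36A that the gene symbol rule leaves out, measured a mean of 524 FPKM in the control and 652 at 20 mM. It rose at 20 mM (0.32 ± 0.11, adjusted p = 0.0463, limma), so the low value of RPL36A does not describe both genes.

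The annotation sets RPS10, RPL17 and RPL36A beside same-strand neighbours. In GENCODE release 29, 39.4% of the exon bases of RPS10 and 32.7% of those of RPL17 are also exons of another gene on the same strand, and 8.4% of those of RPL36A. Those neighbours are readthrough genes that join the member to the next gene (RPS10-NUDT3, RPL17-C18orf32 and RPL36A-HNRNPH2), and all 3 were listed at 0 in every library. Over the 73 other core genes the share had a median of 0 and a highest value of 25.6%, in RPS2. How reads in shared exons were counted is not given in the sources used here, and the part of shared exons in the values of these genes was not tested.

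The members with a pyrimidine run at the listed start had higher median fold changes than those without. The 54 tested members with a run had median log2 fold changes of 0.12 at 10 mM and 0.18 at 20 mM, and the 12 without a run -0.02 and 0.01. The 12 are RPL15, RPL17, RPL26L1, RPL27, RPL6, RPL7L1, RPL9, RPS15, RPS26, RPS27L, RPS29 and RPS4X. They include 3 paralogues, and the split was not tested. RPL39L, RPL37 and RPL30 had no entry.

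Other genes of translation are set beside the 15.4% of all genes that rose and the 21.6% that fell at 20 mM. Of 19 tested TOP mRNAs that do not encode members, 9 rose and 1 fell at 20 mM, with a median of 0.22. They include EEF2, the translocation factor (log2 fold change 0.55 ± 0.08), TPT1 (0.52 ± 0.12) and RACK1, a scaffold on the small subunit (0.45 ± 0.10, adjusted p = 0.00569, limma). Of 4 ribosomal proteins named outside the RPL and RPS pattern, 2 rose, RACK1 and RPL36AL, and FAU, which is made as a ubiquitin-like fusion, had -0.04. Of 10 elongation factors 3 rose and 3 fell (median -0.01), the fallen ones including EIF5A (-0.34 ± 0.08). The lists overlap, so their counts are not separate. The 3 risen elongation factors (EEF1B2, EEF1D and EEF2), RACK1 and initiation factors such as EIF4B and PABPC1 are also among the TOP mRNAs. Of 40 initiation factors and their regulators 11 rose and 5 fell (median 0.09). The risen ones were led by EIF4EBP1, an inhibitor of the cap-binding protein EIF4E (0.88 ± 0.11), EIF5 (0.58) and EIF1 (0.54). Of 13 kinases and TOP-binding genes 1 rose, EIF2AK3 (0.27), and 3 fell, including RPS6KB2 (-0.52) and EIF2AK4 (-0.43).

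The mitochondrial ribosome, built from other genes, had the opposite sign of median. Of its 77 tested proteins 5 rose and 19 fell at 20 mM, with a median log2 fold change of -0.14, led by MRPL1 (-0.62 ± 0.17), MRPL12 (-0.53 ± 0.17) and MRPL55 (-0.51 ± 0.11). Of all genes, 15.4% were called higher and 21.6% lower. Of 117 tested genes taken by name as ribosomal protein pseudogenes, 8 rose and 1 fell, beside the same shares of all genes, with a median of 0.10. Reads of such pseudogenes can come from the parent mRNAs. The name pattern also took in RPS19BP1 (0.35 at 20 mM), which is not a ribosomal protein pseudogene.

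**Figure D5:**
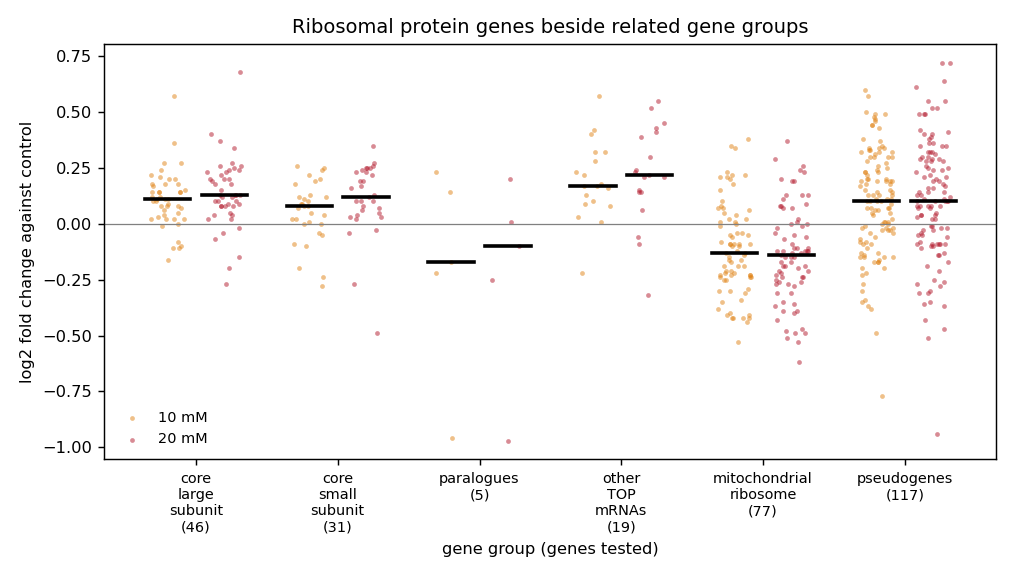
Log2 fold change against control (y axis) of each tested gene (points) at 10 mM (orange) and 20 mM 2-DG (red) by gene group (x axis, number of genes in brackets); black bars are medians. The core genes of both subunits lie mostly above 0 at 20 mM (medians 0.13 and 0.12), the other TOP mRNAs at 0.22 and the mitochondrial ribosomal proteins at -0.14.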

How the data were processed

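Total RNA of 9 MDA-MB-231 libraries (control, 10 mM and 20 mM 2-DG, n = 3 each) was extracted with an RNeasy kit and libraries were made with a SMARTer mRNA kit. The authors deposited FPKM values, 1 file per library, for 61552 genes, of which 20495 had no name. The submitters' processing notes name GRCh38 (hg38). The aligner, counter and annotation release are not given in the sources used here. The study called genes with DESeq2 on counts, which were not used here. The files at 20 mM hold up to 14 decimals and the other 6 hold 9, so they may have been written at another time. For each of the 83 members above 0, a single gene length gave whole reads in all 9 libraries. Searched separately, the smallest such length was the same in the 20 mM files and in the other 6 for 79 of them. RPL31, RPLP0, RPL3L and RPL26 differed, 3 of them by a whole factor.

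Library totals and reads per gene were worked back from the deposited FPKM (99.8% to 99.9% of each total, whole within a tolerance of 0.005 reads plus rounding) with the help of GENCODE release 29 exon lengths. A gene was tested if 3 or more libraries held 10 or more reads for it (scaled to the median total) and all 9 together 15 or more, which left 16570. The values were fitted as log2(FPKM + 1) with limma 3.58.1 in R 4.3.3 (trend, all 9 libraries, Benjamini-Hochberg adjustment over all genes tested). A further fit centred each library on its median over the 77 core members. Fold changes of low genes are understated by the pseudocount. The fits were tested on simulated data. The members, gene lists and tests were chosen with earlier results of these data known, and the lists were written from general knowledge.

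Named were RPLP0 to RPLP2, RPSA, RPL5, RPL11, RPS6, RPS3, the paralogue pairs and members departing from the set at 20 mM. The 4 highest and 4 lowest fold changes at 20 mM, the 5 members highest in mean FPKM, and up to 3 called genes per list were also named. Some genes that this rule names are not reported here. Replicates correlated at 0.9889 to 0.9961 (Pearson's r) and no pair of libraries agreed within sampling noise. Scaling, pseudocount, filter, fit, threshold and libraries were varied.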

Additional observations from a re-analysis of the deposited data

How the results depend on the processing

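No named member reversed its sign past the test in any alternative. At 10 mM the count of members called higher (2) became 1 with median-ratio scaling, with all genes above 0 or with only the 2 groups compared, 4 with limma-voom on recovered reads, and 0 at the thresholds of the study. It ranged from 1 to 17 when single libraries were left out. The lower count (3) became 1 with upper-quartile scaling or only the 2 groups, 0 at the study's thresholds, and ranged from 1 to 5. At 20 mM the higher count (6) became 15 with upper-quartile scaling, on the TPM scale or with limma-voom, 3 with all genes above 0, 25 with only the 2 groups and 0 at the study's thresholds, and ranged from 2 to 20. The lower count (5) became 2 with upper-quartile scaling, 3 with all genes above 0 and 0 at the study's thresholds, and ranged from 3 to 6. The 3 departures at 20 mM became 5 at a threshold of 0.3 and 1 at the study's thresholds, with 2 to 3 when libraries were left out. The median at 10 mM ranged from -0.01 to 0.18 over left-out libraries and that at 20 mM from 0.06 to 0.18, moves no larger than the SD of the set level. Between the doses 0 members were called in every alternative. The shares of all genes called in the fits with a library left out or with only the 2 groups were not worked out. The causes were not tested.

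Replicate numbers did not pair the libraries over all genes tested: correlations of same-numbered libraries' deviations ran from -0.406 to 0.293. Over the members alone they ran from -0.169 to 0.682. Some differently numbered libraries went together over all genes tested. They were control replicate 1 with 10 mM replicate 2 (0.521) and control replicate 2 with 10 mM replicate 1 (0.488). The block below followed the replicate numbers, and other pairings were not tested. With a replicate block the counts were 1 higher and 2 lower at 10 mM, 5 higher and 4 lower at 20 mM, and 2 departures (RPL12 and RPL39L). With 3 libraries a group, the SD of the set level of 0.15 (log2, pooled over the 3 groups) limits what can be said of the set as a whole.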
